A study of Mus musculus with 18 samples.

Results

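miR-221 and miR-222 are miRNAs that are processed from neighbouring hairpins on the X chromosome, and each hairpin can release a 5p and a 3p mature arm. The 4 mature arms, listed as mmu-miR-221-5p, mmu-miR-221-3p, mmu-miR-222-5p and mmu-miR-222-3p and written here without the species prefix, were taken by name from the 1412 mature miRNAs of a small RNA sequencing table. They were measured in 18 libraries of femoral condyle cartilage from wild-type C57bl6 mice, which the study describes as male and skeletally mature. In the injured groups the anterior cruciate ligament (ACL) of the right knee had been ruptured mechanically, by a single load under isoflurane per the methods. There were 3 libraries of injured knees and 3 of contralateral left knees at day 1 after rupture, the same at day 7, and 6 of naïve mice with no rupture, which the labels place at day 7. The contralateral knees belong to mice that had been through the procedure, whereas the naïve knees do not. Every library was made from cartilage pooled from mice, so the libraries are pools and not single animals, and the labels do not say which pools share mice. The study pooled more mice per library at day 7 than at day 1, because of partial loss of cartilage. The spread between libraries at the 2 days therefore rests on pools of different size. In the naïve group, separate pools were made of left and of right knees. The study counts 6 naïve mice in all, so the left and the right pools draw on the same animals. All tests here treat the 6 naïve libraries as independent, which they are not. The p-values against naïve cartilage are too small to the degree that pools of the same animals are alike.

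miRNAs act through the seed, bases 2 to 8 of the mature strand, which pairs with target mRNAs and lowers their translation and stability. The 3p arms of miR-221 and miR-222 are the better known strands. They repress the cell cycle inhibitor Cdkn1b (p27) and, in endothelium, the receptor Kit, and they are abundant in vascular cells. In cartilage they have been linked to mechanical load and to chondrocyte proliferation, which is the reason to ask whether they moved after joint injury.

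A RefSeq mature sequence was found for 3 of the 4 arms. They are shown because the 3p arms of the 2 hairpins share a seed while the 5p arm of miR-221 has a different one. Capitals mark the seed, each sequence runs 5′ to 3′, and positions are on the minus strand of GRCm38.p6.
miR-221-3p (chrX:19146307-19146329): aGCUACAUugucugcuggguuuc
miR-222-3p (chrX:19146901-19146923): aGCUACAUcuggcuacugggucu
miR-221-5p (chrX:19146344-19146369): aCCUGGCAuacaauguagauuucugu
The 2 3p arms are both 23 bases long and have the same base at 11 of the 23 positions. Their first 8 bases are identical, seed included. All 12 differences lie after the seed. Counted from 1 at the 5′ end, with the base of miR-221-3p first, they are U9C, G10U, U11G, C12G, U13C, G14U, C15A, U16C, G17U, U20G, U22C and C23U. Reads that cover the second part of the molecule can therefore tell the 3p arms apart. Among 1679 mature mouse entries of the RefSeq table, 1 more shares this seed, miR-1928, which is not among the miRNAs counted here. No other entry has the seed of miR-221-5p.

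The Mir221 hairpin lies at chrX:19146294-19146388 and Mir222 at chrX:19146893-19146971, with 504 bases between them. In the 95-base Mir221 hairpin the 5p arm covers bases 20 to 45 and the 3p arm bases 60 to 82. In the 79-base Mir222 hairpin the 3p arm covers bases 49 to 71. No other gene of the GENCODE annotation overlaps either hairpin. The nearest gene at higher coordinates, Gm14636, lies 10009 bases away on the same strand.

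Depth ranged from 758388 to 4088852 miRNA counts per library, and 428 miRNAs had enough counts to be tested, among them 3 of the 4 arms. Abundance is given as CPM, the count divided by the library size and scaled to a common total, with library sizes adjusted by TMM, and each group value is a mean ± SD over libraries. A pair of libraries stood apart from the rest of their groups, day 7 contralateral replicate 1 and day 1 injured replicate 2. Their root mean square distances were 1.13 and 0.920 on the log2 scale, against 0.349 to 0.774 in the other 16, and results that rest on them are also given without them. Chondrocyte miRNAs were measured in every library. The summed level of miR-140 and miR-455, miRNAs of cartilage, lay between 5029 and 10499 CPM. Skeletal muscle miRNAs summed to between 62206 and 313607 CPM, above the cartilage miRNAs in every library. Bulk RNA cannot tell fewer cells of a type from less RNA per cell.

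The arms differed widely in abundance. miR-221-3p was the main product, with 1253 to 6347 counts per library and a mean of 1729 ± 399 CPM (SD, n = 18), which ranks 57 of the 428 tested miRNAs. miR-222-3p followed with 275 to 1592 counts and 403 ± 97.4 CPM (rank 109). miR-221-5p had 84 to 381 counts and 126 ± 27.6 CPM (rank 164). These mature strands are of similar length, and the 3p arms outnumbered miR-221-5p in all 18 libraries. miR-222-5p was close to undetected, with 23 counts in all, at most 3 in a library and none in 4 libraries. It did not pass the filter on low counts and was not tested, and no group difference in it was detectable at this depth.

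The level of miR-221-3p overlapped between all 5 groups. In naïve cartilage it ranged from 1244 to 2001 CPM with a median of 1734. The 3 contralateral libraries of day 1 held 1544, 1460 and 2327 CPM, and the injured ones 1833, 2311 and 1341 CPM. At day 7 the contralateral libraries held 2672, 1656 and 1450 CPM and the injured ones 1721, 1651 and 1214 CPM. The highest and the lowest of the 18 libraries were therefore both from day 7, the highest being the contralateral library that stood apart. Ordered by mean, the groups ran from day 7 contralateral (1926 ± 654 CPM) through day 1 injured (1828 ± 485), day 1 contralateral (1777 ± 478) and naïve (1658 ± 304) to day 7 injured (1529 ± 275). The ends of this order were the contralateral and the injured knees of day 7. Their means lay further apart than the SD of the injured group (275 CPM) but not than that of the contralateral group (654 CPM).

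miR-222-3p, with the same seed, also overlapped between the groups. Its naïve values ran from 329 to 615 CPM with a median of 401. At day 1 the contralateral libraries held 385, 361 and 531 CPM and the injured libraries 343, 555 and 241 CPM. At day 7 the contralateral libraries held 297, 415 and 387 CPM and the injured libraries 378, 409 and 340 CPM. The injured libraries of day 1 thus spanned the widest range of the injured and contralateral groups, and their highest value was from the library that stood apart. The group means lay between 366.5 ± 61.5 CPM in day 7 contralateral and 436 ± 116 CPM in naïve cartilage, less than 1 SD of the naïve group apart. The sum of both 3p arms, the total of the shared seed, was 2094 ± 403 CPM in naïve and 1904.5 ± 304 CPM in day 7 injured cartilage.

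miR-221-5p was the arm whose day 7 groups were tightest. The naïve libraries ranged from 88.5 to 191 CPM with a median of 124. At day 1 the contralateral libraries held 116, 128 and 166 CPM and the injured libraries 158, 154 and 112 CPM. At day 7 the 3 contralateral libraries held 94.8, 95.5 and 103 CPM and the 3 injured libraries 115, 118.6 and 127 CPM. The 2 knees did not overlap at day 7, but both lay inside the naïve range. Non-overlap of these groups was common, at 26.6% of the 428 tested miRNAs. miR-221-5p rests on few reads, with a counting error of 5.12 to 10.9% per library. The day 7 groups, at 97.7 ± 4.40 CPM (contralateral) and 120 ± 5.74 CPM (injured), varied less than this error alone would give. Their tightness is therefore not shown to be a trait of the arm.

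**Figure D1:**
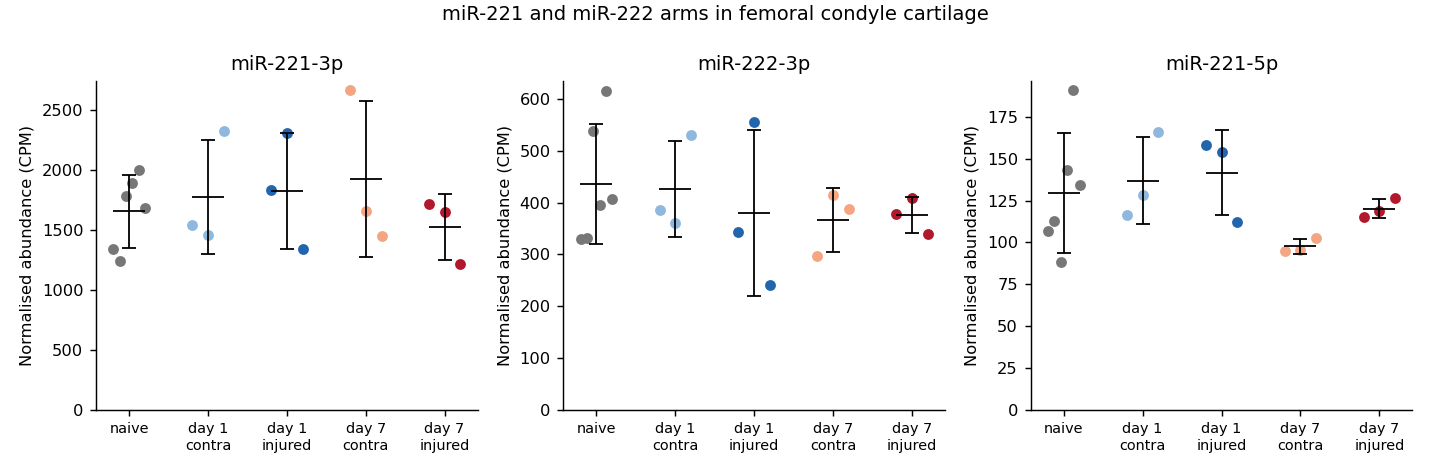
Normalised abundance in CPM (y axis, from 0) of miR-221-3p, miR-222-3p and miR-221-5p in each of the 18 libraries (points), by group, with the mean and SD as bars. The groups overlap for both 3p arms, whose highest naïve values are 2001 and 615 CPM. For miR-221-5p the day 7 contralateral libraries (94.8 to 103 CPM) lie below the day 7 injured libraries (115 to 127 CPM). The day 7 contralateral libraries also lie below both day 1 groups, whose lowest values are 116 CPM (contralateral) and 112 CPM (injured).

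The first comparison asked whether the arms changed in injured cartilage 7 days after rupture relative to naïve cartilage. None of the 3 tested arms passed the test, whereas 18.2% of the 428 miRNAs did, 62 higher and 16 lower (limma-voom, Benjamini-Hochberg adjusted p under 0.05). The log2 fold change of miR-221-3p was -0.12 (SE 0.249, adjusted p = 0.787). Its 95% interval ran from 1.56-fold lower to 1.32-fold higher. For miR-222-3p the log2 fold change was -0.18 (adjusted p = 0.725), with an interval from 1.66-fold lower to 1.295-fold higher. For miR-221-5p it was -0.06 (adjusted p = 0.890), with an interval from 1.46-fold lower to 1.34-fold higher. These intervals do not show that the levels were equal. The libraries of the 2 groups overlapped for all 3 arms, while 24.1% of the tested miRNAs did not overlap. The median log2 fold change over all tested miRNAs was -0.00.

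Against the contralateral knee at day 7, again none of the 3 arms passed, beside 14.7% of all tested miRNAs. The log2 fold change was 0.30 for miR-221-5p (SE 0.266, adjusted p = 0.562), -0.30 for miR-221-3p (SE 0.283, adjusted p = 0.582) and 0.04 for miR-222-3p (SE 0.303, adjusted p = 0.951). The 2 arms of the miR-221 hairpin thus had estimates of opposite sign. The negative value of miR-221-3p rested on day 7 contralateral replicate 1, and without that library it was 0.01 (adjusted p = 0.989). With library depth as a covariate it was -0.47 (adjusted p = 0.171), the smallest adjusted p of any arm in any setting tried.

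At day 1 no miRNA at all passed the test in injured against naïve cartilage (0% of 428; 8 had an unadjusted p under 0.05, and edgeR and DESeq2 also called 0). The log2 fold changes were 0.16 for miR-221-5p, 0.13 for miR-221-3p and -0.24 for miR-222-3p (adjusted p = 0.992 for each). Against the contralateral knee, 0% passed as well, again with 8 at an unadjusted p under 0.05, and the values were 0.05, 0.04 and -0.23 (adjusted p = 0.997 for each). Injured libraries overlapped with naïve and with contralateral libraries for all 3 arms, beside 1.4% and 8.64% of tested miRNAs without overlap. The estimate for miR-222-3p depended on single injured libraries in both directions. Without day 1 injured replicate 2 it was -0.64 against naïve (adjusted p = 0.861) and -0.56 against contralateral cartilage (adjusted p = 0.881). Without day 1 injured replicate 3 it was -0.03 against naïve (adjusted p = 0.998) and 0.04 against contralateral cartilage (adjusted p = 0.999).

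The contralateral knee itself was compared with naïve cartilage at day 7, since it serves as a control. No miRNA was called (0% of 428, 23 with an unadjusted p under 0.05, 1 called by DESeq2). miR-221-5p had the most negative estimate of the arms, with a log2 fold change of -0.36 (SE 0.229, adjusted p = 0.675), while miR-221-3p was at 0.18 (adjusted p = 0.827) and miR-222-3p at -0.22 (adjusted p = 0.788). No arm was without overlap here (1.87% of the tested miRNAs were). The sign of miR-221-3p turned without day 7 contralateral replicate 1, to -0.09 (adjusted p = 1.00).

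Between day 1 and day 7 in injured cartilage, 15.7% of miRNAs were called and none of the 3 arms was. The log2 fold changes were -0.22 for miR-221-5p (adjusted p = 0.688), -0.24 for miR-221-3p (adjusted p = 0.665) and 0.07 for miR-222-3p (adjusted p = 0.920). All 3 arms overlapped between the 2 days, whereas 34.3% of the tested miRNAs did not. The difference between the injury effects of day 7 and day 1, each against its contralateral knee, was called for 6.78% of miRNAs. For the arms it was 0.25, -0.34 and 0.27 in the same order (adjusted p = 0.848, 0.804 and 0.868). A test for any difference among the 5 groups called 13.6% of miRNAs and no arm (adjusted p = 0.932 for both 3p arms and 0.625 for miR-221-5p).

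**Figure D2:**
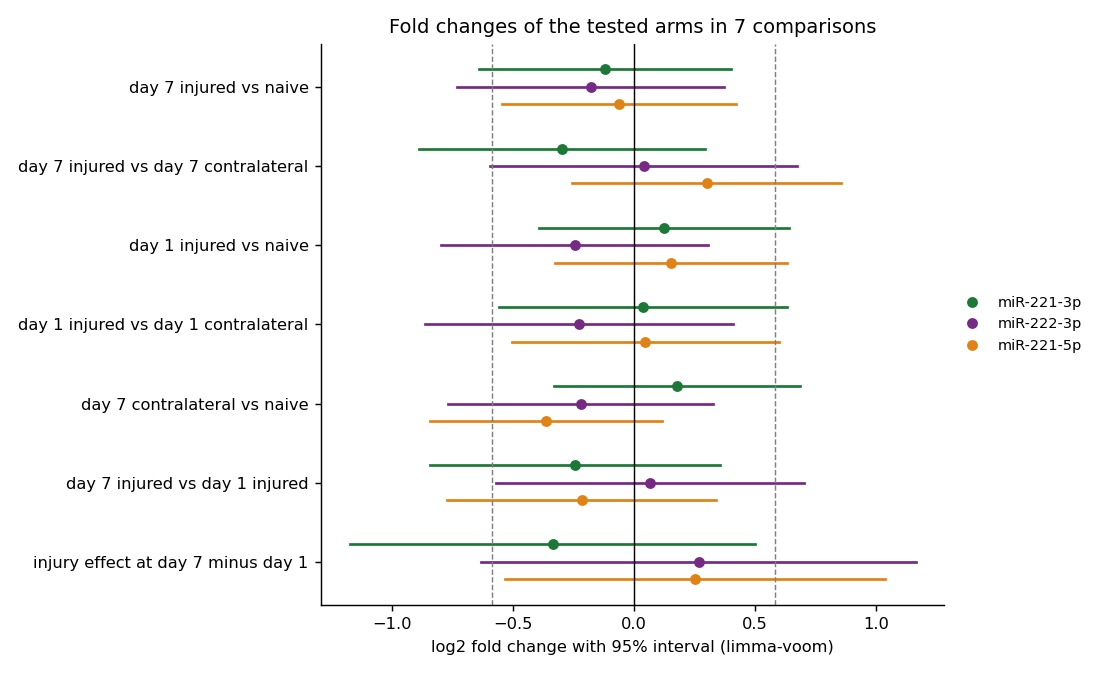
Log2 fold changes (x axis) of the 3 tested arms in the 7 comparisons, as points with 95% intervals from limma-voom; dashed lines mark a 1.5-fold change in each direction. Every interval spans 0, from miR-221-5p at -0.36 in day 7 contralateral against naïve cartilage to 0.30 in day 7 injured against contralateral cartilage.

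Replicate spread set how small a change could be seen. The SD of log2 CPM within groups was 0.28 for miR-221-5p, 0.34 for miR-221-3p and 0.37 for miR-222-3p, below the median of 0.46 over all tested miRNAs. Among the 50 miRNAs nearest in level to each arm, the median SD was 0.375, 0.378 and 0.424 in the same order. The arms lay at percentiles 24, 44 and 30 of these neighbours, so their spread was not unusual for their level. The smallest absolute log2 fold change among the miRNAs called in day 7 injured against naïve cartilage was 0.55.

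The arms of 1 hairpin were next compared within each library, where no scaling between libraries enters. miR-221-5p made up 6.88% of the reads of the miR-221 hairpin over all libraries (4341 reads against 58736 of the 3p arm, exact 95% binomial interval 6.69 to 7.08%). By library this share ran from 3.43% to 9.44%. For miR-222 the 5p share was 0.165% (0.105 to 0.248%), and it ran from 0 to 0.450%. In the 4 libraries where it was 0, the exact upper limits of the share were 0.396% to 0.587%, and a limit of 3 counts gives 0.323% to 0.478%. These intervals and limits cover counting error only. The 5p share was higher for miR-221 than for miR-222 in 18 of 18 libraries. Among 156 hairpins with at least 1000 reads in all, the minor arm took a median of 2.02%, so that miR-221 keeps more of its minor arm than the median hairpin and miR-222 less. Counted from the lowest share, miR-221 ranked 96 and miR-222 ranked 35 of the 156.

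Per 100 reads of miR-221-3p there were 7.50 ± 1.65 reads of miR-221-5p and 23.8 ± 4.60 reads of miR-222-3p (SD, n = 18). Both ratios were lowest in day 7 contralateral replicate 1, at 3.55 and 11.1 reads. Its miR-221-3p was the highest of all libraries while its miR-222-3p and miR-221-5p were the lowest of their group. Of the 3 day 7 contralateral libraries it also had the highest summed level of vascular (98208 CPM), leukocyte (11193 CPM), erythroid (12533 CPM) and skeletal muscle miRNAs (280436 CPM). Its summed level of cartilage miRNAs was the lowest of the 3 (5029 CPM). The part of these cell types in its ratios was not tested.

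miR-222-3p per 100 reads of miR-221-3p was 20.2 ± 3.30 in day 1 injured cartilage (n = 3) and 26.2 ± 3.75 in naïve cartilage (n = 6). The 3 injured libraries held 18.7, 24.03 and 17.96 reads and the naïve libraries 20.9 to 30.7, so that the groups overlapped. On the log2 scale the difference was -0.37 (exact permutation test, two-sided, p = 0.0476, adjusted p = 0.381 over 8 ratio tests). It was -0.50 without day 1 injured replicate 2. Leaving out 1 library at a time, it ran from -0.50 to -0.29, with unadjusted p of the same test from 0.0357 to 0.143. The mean of the day 1 contralateral libraries lay between those of the injured and the naïve group, at 24.2 ± 1.15 reads. For miR-221-5p per 100 reads of miR-221-3p the widest gap was at day 7, with 8.10 ± 2.02 in injured and 5.47 ± 1.79 in contralateral cartilage (n = 3 each). The log2 difference was 0.60 (exact permutation test, two-sided, p = 0.2, adjusted p = 0.533), and it was 0.32 without day 7 contralateral replicate 1. Groups of 3 cannot give a p below 0.1 in this test. None of the 8 tests passed after adjustment.

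**Figure D3:**
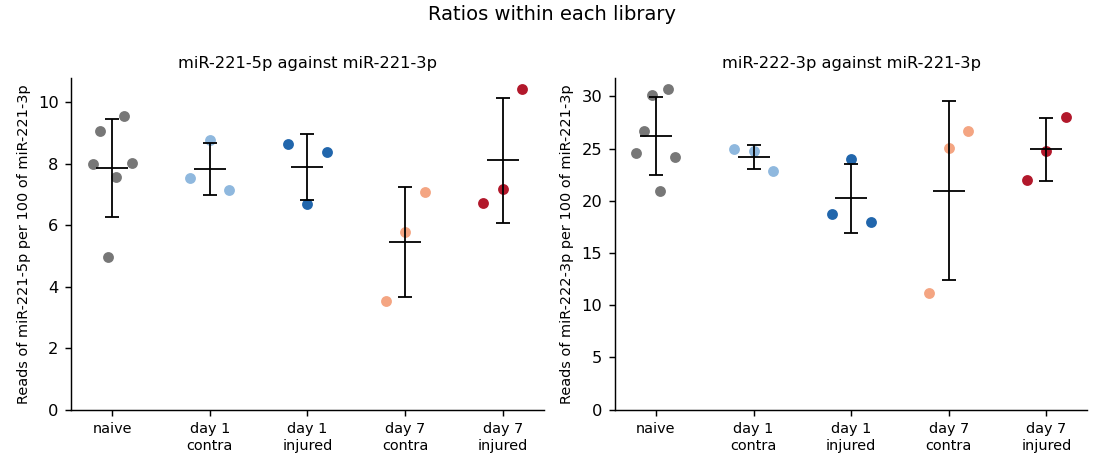
Reads of miR-221-5p (left) and of miR-222-3p (right) per 100 reads of miR-221-3p in the same library (y axes, from 0), by group, with mean and SD. The lowest point of both panels is day 7 contralateral replicate 1, at 3.55 and 11.1 reads.

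Library depth moved with miR-221-3p. In all 5 groups the shallowest library had the highest level of miR-221-3p, an order shared by 8 of the 428 miRNAs (1.87%), and in 4 of 5 groups the deepest library had the lowest. In naïve cartilage the counts of miR-221-3p stayed between 2343 and 3036 while the library totals ran from 864123 to 2450093. After removing the group means, the log2 level of miR-221-3p and the log10 library total had r = -0.801 and rho = -0.775 over the 18 libraries (permutation test within groups, p = 0.00107 and 0.00186, adjusted p = 0.00321 and 0.00558 over the 3 arms). Without the 2 libraries farthest from the median depth, r was -0.811, and without the 2 that stood apart it was -0.743. For miR-222-3p r was -0.562 (permutation test, adjusted p = 0.0347) and rho -0.501 (adjusted p = 0.0860), with r = -0.530 after the same omission. For miR-221-5p r was -0.333 (permutation test, adjusted p = 0.156), rho -0.282 (adjusted p = 0.262) and r -0.387 after the same omission.

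Fitted with depth as a term beside the groups, miR-221-3p had a slope of -1.24 log2 units for each 10-fold rise in depth (SE 0.325, limma-voom adjusted p = 0.0224), beside 8.18% of all miRNAs called, 25 higher and 10 lower with depth. miR-222-3p (slope -0.92, adjusted p = 0.138) and miR-221-5p (slope -0.43, adjusted p = 0.486) were not called. The library total is also the denominator of CPM, so the 2 measures share it. No arm was called in any comparison with depth in the fit. This relation was looked for after the levels had been seen.

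The 2 3p arms also deviated together within groups, although not beyond the threshold after adjustment. Their deviations from the group means had r = 0.581 and rho = 0.587 over 18 libraries (permutation test, p = 0.0324 and 0.0354, adjusted p = 0.0972 and 0.0834 over the 3 pairs of arms). Without the 2 libraries farthest from the median of miR-221-3p, r was 0.734. miR-221-5p and miR-221-3p, from 1 hairpin, had r = 0.450 and rho = 0.513 (permutation test, adjusted p = 0.108 and 0.0834), and r = 0.584 with 2 libraries left out. miR-221-5p and miR-222-3p had r = 0.493 and rho = 0.511 (permutation test, adjusted p = 0.110 and 0.0891), and r = 0.684 with 2 left out. The 3 arms share library depth and scaling.

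**Figure D4:**
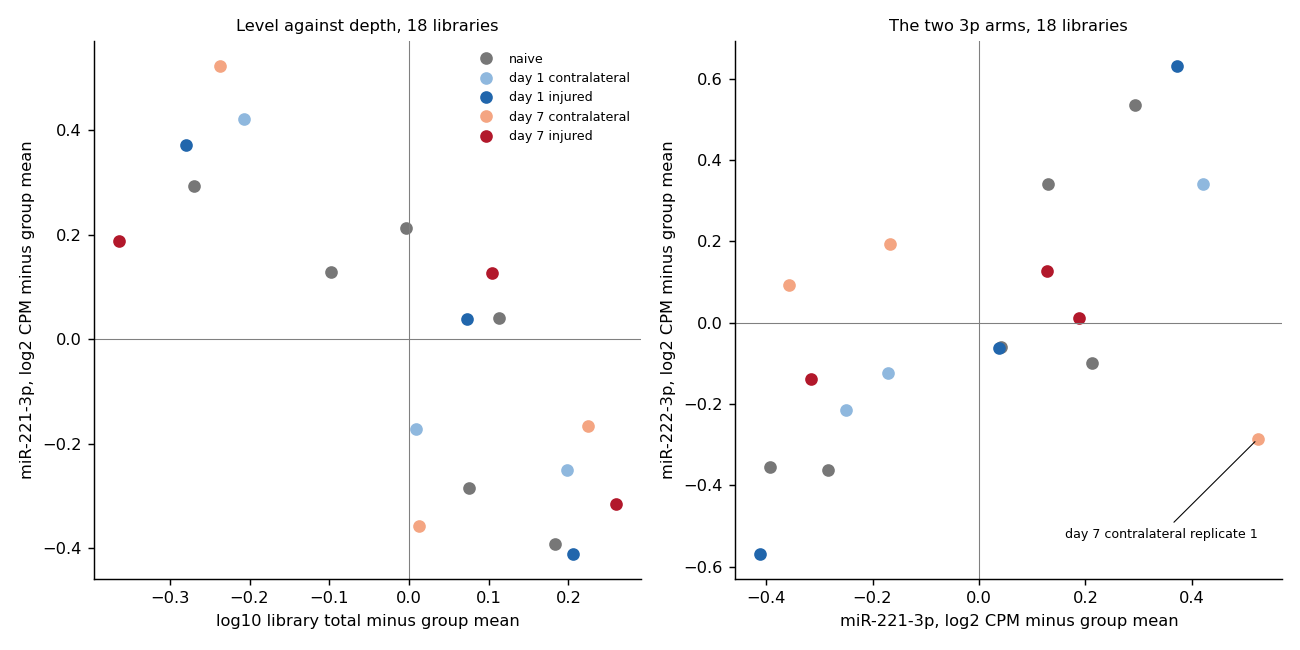
Left, log2 CPM of miR-221-3p against log10 library total, and right, log2 CPM of miR-222-3p against miR-221-3p, each with the mean of its group subtracted; points are the 18 libraries. miR-221-3p is lower in deeper libraries (r = -0.801), and the 3p arms lie along a rising line (r = 0.581) from which day 7 contralateral replicate 1 is apart.

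The tested miRNAs whose pattern over the 18 libraries was most like each arm were taken by Pearson r of log2 CPM, as a description, since all share depth and scaling. For miR-221-3p they were miR-184-3p (r = 0.866), miR-92b-3p (r = 0.851) and miR-423-5p (r = 0.841), which kept r of 0.800, 0.772 and 0.739 over the 16 libraries without the 2 that stood apart. For miR-222-3p they were miR-484 (r = 0.799), miR-15b-5p (r = 0.774) and miR-501-3p (r = 0.730), with 0.826, 0.717 and 0.696 over the 16. For miR-221-5p the likeness was looser, with miR-672-5p at r = 0.549, miR-212-5p at 0.498 and miR-690 at 0.496. The arms themselves were left out of these rankings. On the same measure miR-222-3p ranked 42 of 427 for miR-221-3p (r = 0.485). For miR-221-5p, miR-222-3p ranked 13 of 427 (r = 0.445) and miR-221-3p of the same hairpin ranked 62 (r = 0.309).

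Other miRNAs known to respond to mechanical load are given to compare sizes of change. This list was chosen with earlier results of these data known. The listed miRNAs that rose had already been reported as changed in these data. The number that rose is therefore not an independent benchmark. In day 7 injured against naïve cartilage, 3 of 9 such miRNAs rose and none fell, beside the 18.2% called over all miRNAs. The median log2 fold change of the 9 was 0.22. miR-31-5p rose 4.15-fold (adjusted p = 6.98e-06), from 7.68 ± 1.89 to 31.1 ± 8.93 CPM. miR-21a-5p, a miRNA of fibrosis and injury, rose 3.61-fold (adjusted p = 8.23e-05), from 7430 ± 2436 to 25342 ± 5413 CPM. miR-27b-3p rose 1.60-fold (adjusted p = 0.0196). The other 6 had log2 fold changes between -0.31 and 0.30 and were not called, and the 3 arms of miR-221 and miR-222 lay within that range. Against the contralateral knee at day 7, 2 of the 9 rose, beside 59 of all 428 tested miRNAs, of which 14.7% were called in either direction. At day 1 no miRNA of the table passed, the 9 included.

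**Figure D5:**
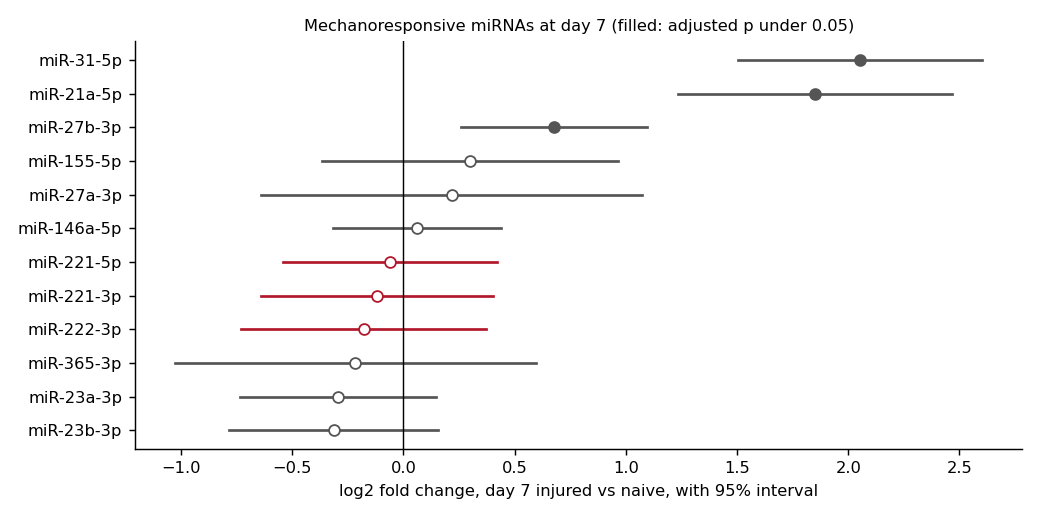
Log2 fold changes with 95% intervals (x axis) of 9 mechanoresponsive miRNAs (grey) and the 3 tested arms of miR-221 and miR-222 (red) in day 7 injured against naïve cartilage; filled points passed an adjusted p of 0.05. The arms lie at -0.06, -0.12 and -0.18, and the called miRNAs at 0.68, 1.85 and 2.05.

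Endothelium and smooth muscle, cells in which miR-221 and miR-222 are abundant, are marked by miR-126a (endothelium) and by miR-143 with miR-145a (smooth muscle). None of these 6 mature arms passed the test in day 7 injured against naïve cartilage, and their median log2 fold change was 0.18. Their summed level was 66776 ± 15020 CPM in naïve and 78719 ± 3672 CPM in day 7 injured cartilage. None of the 4 cartilage miRNAs passed either (median 0.20). In the same comparison 2 of 5 erythroid miRNAs and 1 of 5 leukocyte miRNAs fell, beside 16 of all 428 tested miRNAs, and none of 8 tested skeletal muscle miRNAs passed the test (median -0.46). The part of these cell types in the levels of the arms was not tested.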

How the data were processed

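The authors trimmed the reads (Trim Galore 0.6.6), aligned them to mature miRBase miRNAs (Bowtie 1.3.0) and counted alignments (SAMtools 1.12). How reads that match several miRNAs were treated is not given in the sources used here. They deposited raw read counts per mature miRNA, not normalised. Groups came from the treatment labels. Table rows were matched to samples by library number, since the prefixes differ. All columns were mapped.

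Counts were filtered with filterByExpr (edgeR 4.0.16, minimum count 10, minimum total 15), scaled by TMM, and fitted with limma 3.58.1 (voom, 1 mean per group, all 18 libraries, R 4.3.3). The study also modelled shared mouse pools. The labels do not give them, so libraries were treated as independent, and p-values measure the spread between these pools. Benjamini-Hochberg adjustment ran over 428 miRNAs, at 0.05. Ratios added 0.5 to each count. Correlations used 100000 permutations within groups. Log2 CPM for likeness used a prior count of 2. The limma-voom steps were tested on simulated data, in the comparison of day 7 injured with naïve cartilage. The ratio tests and correlations were not tested in this way.

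Alternatives were other scalings, filters and tests (DESeq2 1.42.0, edgeR quasi-likelihood), and leaving out libraries. The named miRNAs were the arms, the 3 most alike by r, seed sharers and the lists. The members and lists were chosen with earlier results of these data known.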

Additional observations from a re-analysis of the deposited data

Results flagged for a closer look

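In naïve replicate 3 the log2 ratio of miR-221-5p to miR-221-3p was -4.33, that is 4.95 reads of miR-221-5p per 100 reads of miR-221-3p, while the other 5 naïve libraries held 7.57 to 9.56. In this ratio the library lay far from the rest of its group. Over all tested miRNAs its root mean square distance was 0.670, within the range of the libraries that did not stand apart. Its miR-221-5p was the lowest naïve value (88.5 CPM, 144 counts) and its miR-221-3p was in the middle of the naïve range (1787 CPM). In the flagged ratio the gap to the next library was 0.644 of the naïve range, just over the limit of 0.625. For a single quantity, chance puts a sample this far out in about 1 in 20 groups. The check was run on each tested arm and on both ratios, so a flag somewhere is likelier than that. Groups of 3 are too small for it.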

How the results depend on the processing

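No arm was called in any comparison under any of 402 alternative values. Counts of called miRNAs moved with at least 10 counts required in every library (48 in day 7 injured against naïve, 38 against contralateral, 44 against day 1 injured), with quality weights (135 against naïve, 109 against day 1 injured) and with DESeq2 (1 in day 7 contralateral against naïve). The fold changes are small, and their sign turned as follows (log2); no cause was tested. Library totals only, which moved the median of all miRNAs to -0.15 and -0.13, gave -0.042 and -0.086 for miR-221-5p and miR-221-3p in day 1 injured against naïve, and -0.067 and -0.090 against contralateral. Testing every miRNA gave -0.027 for miR-222-3p in day 7 injured against contralateral, and edgeR -0.014 against day 1 injured. Quality weights gave -0.024 for miR-222-3p in day 7 injured against contralateral, and for miR-221-3p -0.049 in day 1 injured against contralateral, -0.0043 in day 7 contralateral against naïve and 0.018 for the difference of injury effects. Depth as a covariate, added after seeing the data, gave -0.086 for miR-222-3p at day 7 and -0.020 for miR-221-3p at day 1, injured against contralateral.

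Without both libraries that stood apart, also added later, miR-221-3p was at 0.0059 and miR-222-3p at -0.041 in day 7 injured against contralateral, and the ratio of miR-222-3p to miR-221-3p at -0.061. miR-221-3p was at -0.13 (day 1 injured against naïve), -0.15 (against contralateral), -0.094 (day 7 contralateral against naïve), 0.045 (day 7 against day 1 injured) and 0.16 (difference of injury effects), and miR-221-5p at -0.036 (day 1 injured against contralateral).

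Leaving out 1 library at a time gave these ranges. miR-221-5p: -0.12 to 0.10 in day 7 injured against naïve, -0.040 to 0.24 in day 1 injured against naïve, -0.087 to 0.20 against contralateral, -0.27 to 0.016 in day 7 against day 1 injured. miR-221-3p: -0.20 to 0.070, -0.14 to 0.26, -0.16 to 0.24 and -0.34 to 0.050 in the same comparisons, -0.48 to 0.0078 in day 7 injured against contralateral, -0.090 to 0.37 in day 7 contralateral against naïve, -0.51 to 0.0013 for the difference of injury effects. miR-222-3p: -0.038 to 0.18 in day 7 injured against contralateral, -0.56 to 0.044 in day 1 injured against contralateral, -0.11 to 0.49 in day 7 against day 1 injured. The ratio of miR-221-5p to miR-221-3p: -0.15 to 0.17 in day 7 injured against naïve, -0.10 to 0.14 in day 1 injured against naïve, -0.059 to 0.13 against contralateral. That of miR-222-3p: -0.15 to 0.021 in day 7 injured against naïve and -0.061 to 0.57 against contralateral.

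Groups of 3 pools limit what can be seen, and miR-222-5p is below the depth needed for a test. No paired analysis was possible because the labels give no replicate numbers.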
